A study of Mus musculus with 75 samples.

Results

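The response described here is that of mouse embryonic fibroblasts whose only RelA lacks its transactivation domains, 3 h after tumor necrosis factor (TNF). Its members were chosen by label, as the libraries of the construct RelA-dTAD at 3 h and at 0 h, which are 4 of the 75 libraries of the series, with 1 library per time in each of the 2 deposited sets. All groups used here share the same fibroblasts, which are p53-/-crel-/-rela-/-, labelled as primary, of strain C57BL/6 and taken at the embryo stage. The groups differ in what a pBABE-puro retrovirus carried: RelA-dTAD, RelA-dTA1, RelA-WT or EV (an empty vector). The labels give the constructs by these names alone, which are read here as RelA without its transactivation domains, RelA without domain TA1 and full RelA. Cells were starved overnight in 0.5% bovine calf serum, then given 10 ng/ml TNF, and polyadenylated RNA was taken at 0, 0.5, 1, 3 and 8 h, the 0 h cells having had no TNF. The 0 h cells are the only cells without TNF used here, so time since the change of medium and time in TNF cannot be told apart. Set numbers equal the replicate numbers of the labels, and no label says that sets came from separate infections or cultures, so the p-values measure the spread between libraries, which may be technical. The residues removed in each construct and the number of infected clones are not given in the labels.

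NF-kB is a family of dimeric transcription factors that inhibitor proteins such as IkB alpha hold in the cytoplasm until a signal like TNF leads to the inhibitor's breakdown. RelA binds DNA through its N-terminal Rel homology region and activates transcription through C-terminal transactivation domains, TA1 and TA2. TNF also activates MAP kinases, which raise immediate early genes such as the Fos and Jun families without the need for RelA, and the feedback genes of NF-kB (Nfkbia, Tnfaip3) are among the best known targets of RelA in fibroblasts.

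Promoter sequences of 4 genes on which the results below turn are given first. They show which classes of binding site stand close to the start of an NF-kB feedback gene, a chemokine gene, an interferon-response gene and a MAP kinase phosphatase gene. They are RefSeq sequences of build GRCm38.p6, on the minus strand in all 4 cases and written 5′ to 3′, with bases before the transcription start only. Capitals mark matches on either strand to the kB consensus of NF-kB, to the core of the interferon-stimulated response element, to the AP-1 site TGANTCA or to the cyclic AMP response element (CRE) TGACGTCA.
Nfkbia, chr12:55492652-55492691, with 1 kB match: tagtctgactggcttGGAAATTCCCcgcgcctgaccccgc
Cxcl10, chr5:92348942-92349117, with 1 response element core, 2 kB matches and 1 AP-1 match, in this order: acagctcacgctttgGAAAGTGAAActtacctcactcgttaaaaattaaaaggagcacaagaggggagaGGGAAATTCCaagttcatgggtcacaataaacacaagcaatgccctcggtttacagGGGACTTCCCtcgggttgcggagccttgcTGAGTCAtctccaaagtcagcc
Rsad2, chr12:26456518-26456587, with 1 response element core on the other strand and 1 AP-1 match: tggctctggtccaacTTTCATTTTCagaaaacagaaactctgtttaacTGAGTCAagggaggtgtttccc
Dusp8, chr7:142095325-142095406, with 2 CRE matches: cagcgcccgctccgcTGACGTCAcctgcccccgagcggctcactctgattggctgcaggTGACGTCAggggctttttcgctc

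The kB match of Nfkbia starts 29 bases before the transcription start, and those of Cxcl10 start 159 and 103 bases before it. Motifs were counted in windows of 250 bases before to 50 bases after each start. Of the 20 genes with the largest rise 17 were found in the RefSeq table, with 20 windows, of which 6 held a kB match. The kB consensus was in 17% of the 100 windows of genes that rose at least 2-fold at 3 h in RelA-dTAD cells, and in 5.45% of the 13381 windows of the genes tested. Among all 1009 genes that rose the share was 9.86%, and among the 691 that fell it was 3.34%. For the AP-1 site the shares were 17% of windows of genes with a 2-fold rise and 5.21% of those tested, with 7.46% for all risers and 5.07% for all fallers. In the same order they were 12%, 3.09%, 4.02% and 1.07% for the response element core, and 9%, 2.98%, 3.92% and 1.74% for the CRE. For the CArG box, the site of serum response factor, they were 6%, 1.31%, 2.2% and 0.267%. No match overlaps another in the 4 sequences above. A match is a stretch of letters whose binding was not tested, and a gene can have more than 1 window.

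Total counts were 5503171 and 19248546 reads at 3 h and 6226356 and 18557058 at 0 h in RelA-dTAD cells, set 1 first, as in every pair of values below. Over the 40 libraries of the 4 constructs with 2 sets, totals ran between 4663288 and 6915919 in set 1 and between 10440202 and 20322003 in set 2. Values are given as CPM, the count scaled to the library total after TMM adjustment (edgeR's cpm). The 12 fibroblast markers, Col1a1, Col3a1 and Pdgfrb among them, summed to 48510 and 44810 CPM at 3 h and to 48760 and 43940 CPM at 0 h, and all 12 were detected in all 4 libraries. The 10 macrophage markers summed to 4.86 and 5.38 CPM at 3 h against 4.78 and 4.499 CPM at 0 h, with 2 of the 10 at 0 in all 4 libraries. No marker of macrophages, endothelium, epithelium, skeletal muscle or neural cells passed the test by edgeR or by DESeq2 (1 neural marker was lower at an unadjusted p under 0.05). Mitochondrial genes took 1.25% and 1.12% of reads at 3 h and 0.981% and 0.984% at 0 h; their part in the results was not tested.

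Rela, the gene of the construct itself, had 1381 and 2283 CPM at 3 h and 1123 and 1785 CPM at 0 h in RelA-dTAD cells. It had 1089 and 1737 CPM at 3 h and 841 and 1444 CPM at 0 h in RelA-dTA1 cells and 1178 and 1454 CPM at 3 h and 1144 and 1467 CPM at 0 h in RelA-WT cells. In EV cells it had 24.2 and 20.04 CPM at 3 h and 16.4 and 15.4 CPM at 0 h. All libraries of the 3 RelA constructs thus lay far above those of EV, as the labels say, while RelA-dTAD and RelA-WT libraries overlapped. The count does not tell which part of RelA the transcript encodes. Rela did not pass the test between 3 h and 0 h in RelA-dTAD cells (log2 change 0.33 ± 0.21, standard error, adjusted p = 0.348). Rel, the gene of c-Rel, which the cells lack by genotype, was counted at 21.9 and 24.8 CPM at 3 h and 16.5 and 21.9 CPM at 0 h. Trp53, the gene of p53, was counted at 37.8 and 41.3 CPM at 3 h and 34.1 and 38.1 CPM at 0 h. Such reads do not check a deletion that spares the exons counted.

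After 3 h of TNF 1009 genes were higher and 691 lower than at 0 h in RelA-dTAD cells, of 13665 tested (7.38% and 5.06% of genes tested, edgeR quasi-likelihood test with set as a block, adjusted p under 0.05). Most changes were small: 72.6% of the rises and 72.9% of the falls were below 1.5-fold, and the median size was 0.41 among rises and 0.44 among falls on the log2 scale. At least 2-fold rises were seen for 114 genes and at least 4-fold rises for 28, against 49 and 6 falls. Direction was the same in both sets for 1008 of the rises and 687 of the falls. Across the 1700 called genes the change in set 1 and that in set 2 had a Pearson correlation of 0.90, and across the 12648 genes with a mean of at least 1 CPM one of 0.61. Both are across genes, which are not independent replicates, and the first was computed on genes selected for their change. The count rests on the pairing by set: without the block 311 genes rose (2.28%) and 86 fell (0.629%), and all of them were among the first list. It also rests on both libraries per time, with 367 rises and 151 falls without RelA-dTAD replicate 1 and 243 rises and 86 falls without RelA-dTAD replicate 2.

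**Figure D1:**
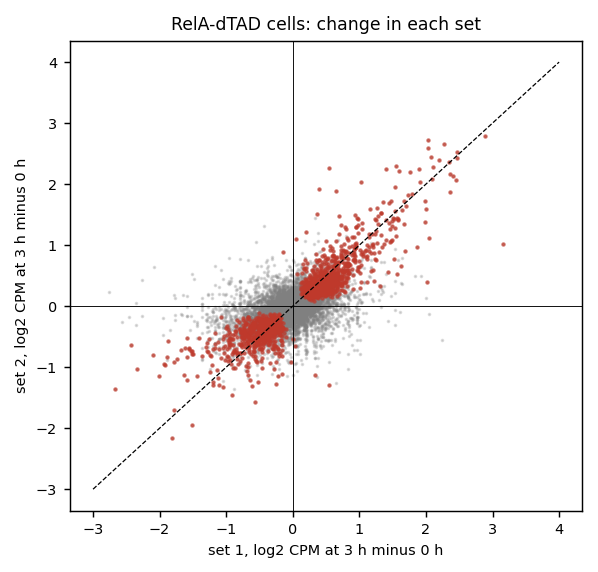
Change between 3 h and 0 h of TNF in RelA-dTAD cells as log2 CPM (prior count 2), set 1 on the horizontal and set 2 on the vertical axis, 1 point per gene with a mean of at least 1 CPM (12648 genes). Red points passed the test, and the dashed line marks equal change in both sets. Most red points lie at the upper right and lower left, where both sets moved the same way.

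Chemokine and cytokine genes were 7 of the 20 largest rises. Of 21 chemokine genes tested, 5 rose (Ccl2, Ccl7, Cxcl1, Cxcl9 and Cxcl10) and none fell, where 7.38% of all genes rose and 5.06% fell. The median log2 change of the 21 was 0.76, where that of all genes was -0.01. Cxcl10 (chr5:92346638-92348889, mm10), a ligand of the chemokine receptor CXCR3 of T cells, had 336 and 365 CPM at 3 h, against 45 and 52.5 CPM at 0 h. That is a 7.16-fold rise (log2 2.84 ± 0.17, adjusted p = 7.29e-10), and the 2 times did not overlap. Ccl2, which draws monocytes, had 152 and 94.3 CPM at 3 h and 29.6 and 18.1 CPM at 0 h (log2 2.38 ± 0.26, adjusted p = 5.4e-06). Ccl7, its neighbour on chromosome 11 and also a monocyte attractant, had 72.3 and 58.5 CPM at 3 h and 15.6 and 11 CPM at 0 h (log2 2.34 ± 0.27, adjusted p = 8.18e-06). In both genes set 1 was the higher set at each time and the lowest 3 h library stood above the highest 0 h library. Cxcl1, a neutrophil attractant, reached 33.3 and 28.3 CPM at 3 h, against 7.71 and 5.02 CPM at 0 h (log2 2.35 ± 0.47, adjusted p = 0.00222). Cxcl9, a second CXCR3 ligand, had 11.2 and 10.1 CPM at 3 h and 3.55 and 2.02 CPM at 0 h (log2 2.09 ± 0.21, adjusted p = 1.21e-08). Without RelA-dTAD replicate 2 Cxcl1 did not pass (log2 2.11, adjusted p = 0.0835). Ccl5, another chemokine known as an NF-kB target, had 19.2 and 20.1 CPM at 3 h and 16.8 and 15.3 CPM at 0 h and did not pass (log2 0.33 ± 0.22, adjusted p = 0.37).

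Among 22 cytokine genes tested, 5 rose and 1 fell, with a median log2 change of 0.05. Over all genes 7.38% rose and 5.06% fell, so the 1 fall is near its share. Il6 had the largest fitted change of the genes named by size, from low levels: 3.42 and 2.41 CPM at 3 h and 0.462 and 0.259 CPM at 0 h, or 66 and 8 reads over both sets (log2 3.06 ± 0.51, adjusted p = 7.25e-05). Without RelA-dTAD replicate 2 Il6 did not pass (log2 2.85, adjusted p = 0.0885). Lif, a cytokine of the same receptor family, had 16 and 11.7 CPM at 3 h, against 2.77 and 2.64 CPM at 0 h (log2 2.28 ± 0.39, adjusted p = 4.55e-04). Tnfsf11, which encodes RANKL, the osteoclast differentiation factor, had 9.35 and 10.9 CPM at 3 h and 3.85 and 3.93 CPM at 0 h (log2 1.42 ± 0.23, adjusted p = 5.25e-05). The other risers were Clcf1 (log2 0.57, adjusted p 0.219 without the set block) and Tnfsf10, the gene of TRAIL (log2 1.82, adjusted p 0.143 without the set block). Kitl, the ligand of the Kit receptor, fell to 69.6 and 102 CPM at 3 h, against 129 and 148 CPM at 0 h (log2 -0.67 ± 0.12, adjusted p = 6.61e-04). Tnf and Csf2, 2 cytokine genes known as NF-kB targets, had 0 reads at 3 h and 0 at 0 h in RelA-dTAD cells in both cases. The chemokine gene Cxcl2 had 12 at 3 h and 1 at 0 h over both sets.

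**Figure D2:**
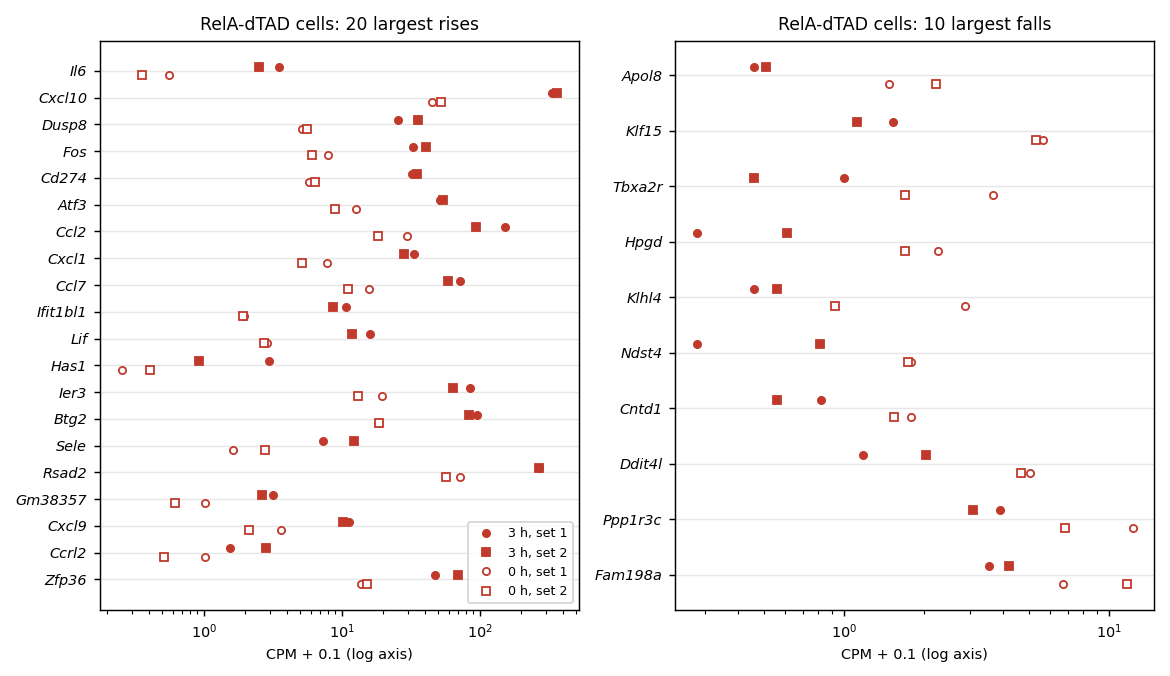
CPM plus 0.1 on a log axis in RelA-dTAD cells for the 20 genes with the largest rise (left) and the 10 with the largest fall (right) among genes that passed the test with a mean of at least 1 CPM. Filled marks are 3 h and open marks 0 h, circles set 1 and squares set 2. In all 20 rising genes both 3 h marks lie right of both 0 h marks, and in all 10 falling genes they lie left of them.

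The remaining genes named by the size of their rise came from several classes. Cd274, which encodes the checkpoint ligand PD-L1, had 32.4 and 34.9 CPM at 3 h and 5.7 and 6.31 CPM at 0 h (log2 2.48 ± 0.18, adjusted p = 2.04e-11). Has1, a hyaluronan synthase, had 32 reads at 3 h and 7 at 0 h over both sets (log2 2.27 ± 0.59, adjusted p = 0.00953). Sele, which encodes the adhesion protein E-selectin, had 7.19 and 12.1 CPM at 3 h and 1.54 and 2.69 CPM at 0 h (log2 2.16 ± 0.47, adjusted p = 0.00448). The call of Has1 was lost without RelA-dTAD replicate 1 (log2 1.37, adjusted p = 0.283), and its change was 4.11 without RelA-dTAD replicate 2. Sele (adjusted p = 0.346) was lost without RelA-dTAD replicate 2. Ccrl2, an atypical chemokine receptor, had 1.44 and 2.71 CPM at 3 h, against 0.925 and 0.414 CPM at 0 h (log2 2.08 ± 0.44, adjusted p = 0.00136, and 0.0546 without the set block), and without RelA-dTAD replicate 2 its change was 0.63 (adjusted p = 0.762). Gm38357 overlaps Noct on the same strand, with 83 reads of its own beside 1785 reads of Noct, so its value (log2 2.09 ± 0.45, adjusted p = 0.0016, and 0.0819 without the set block) is uncertain, and it was lost without RelA-dTAD replicate 2 (adjusted p = 0.213).

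Within the NF-kB system itself the rises were modest. Of the 5 subunit genes, Nfkb1, Nfkb2 and Relb rose and Rel and Rela did not pass. Of 17 feedback genes 9 rose and none fell (5 rose without the set block), at a median log2 change of 0.33. Over all genes 7.38% rose and 5.06% fell (2.28% and 0.629% without the block), so no fall among 17 genes is near its share. Nfkbia (chr12:55489411-55492647), which encodes IkB alpha, had 59.7 and 60.1 CPM at 3 h and 32.2 and 30.2 CPM at 0 h, a 1.94-fold rise (log2 0.95 ± 0.16, adjusted p = 4.58e-04) without overlap between times. Tnfaip3, which encodes the deubiquitinase A20, had 28.1 and 20.5 CPM at 3 h and 12.5 and 6.72 CPM at 0 h (log2 1.44 ± 0.29, adjusted p = 0.0025). Bcl3, a nuclear IkB family member, had 11 and 16.8 CPM at 3 h and 3.39 and 5.48 CPM at 0 h (log2 1.63 ± 0.21, adjusted p = 1.59e-06). Nfkb2, the precursor of p52, had 112 and 116 CPM at 3 h and 75.5 and 78.6 CPM at 0 h (log2 0.56 ± 0.08, adjusted p = 1.48e-05). Nfkb1, that of p50, had 128 and 123 CPM at 3 h, against 92 and 82.9 CPM at 0 h (log2 0.53 ± 0.10, adjusted p = 9.19e-04). All 5 of these genes had both 3 h libraries above both 0 h libraries. Relb, the partner of p52, had 32.4 and 51.1 CPM at 3 h and 18.2 and 32.1 CPM at 0 h. It rose in each set, but set 1 at 3 h was level with set 2 at 0 h (log2 0.72 ± 0.18, adjusted p = 0.00874, and 0.387 without the set block). Tnip1, a partner of A20, did not pass, with 50.9 and 45.6 CPM at 3 h and 60.3 and 50.0 CPM at 0 h (log2 -0.19 ± 0.13, adjusted p = 0.371).

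Of 26 genes of TNF receptor signalling, 4 rose and 1 fell (2 and 0 without the set block), at a median log2 change of 0.09. The shares over all genes, for this list and the adhesion list below, were 7.38% and 5.06% (2.28% and 0.629% without the block), so the 1 fall is near its share. Map3k14, which encodes the NF-kB-inducing kinase, had 44.8 and 30.3 CPM at 3 h and 16.2 and 12.5 CPM at 0 h (log2 1.36 ± 0.13, adjusted p = 4.18e-09). Birc3, a ubiquitin ligase of the receptor complex, had 25 and 26.5 CPM at 3 h and 17.4 and 17.5 CPM at 0 h (log2 0.57 ± 0.13, adjusted p = 0.00400). Map3k8, the kinase TPL2 of the ERK pathway, and Chuk, which encodes IKK alpha, changed by 0.96 ± 0.26 and 0.37 ± 0.10 (adjusted p = 0.0119 and 0.0149; 0.147 and 0.0753 without the set block). The times of Map3k14 and Birc3 did not overlap. Ikbke, a kinase of interferon induction, fell to 14.6 and 14.5 CPM at 3 h, against 19.7 and 20.6 CPM at 0 h (log2 -0.49 ± 0.14, adjusted p = 0.0193, and 0.172 without the set block). Fas, a death receptor of the TNF receptor family, had 21.4 and 16.3 CPM at 3 h and 7.55 and 7.7 CPM at 0 h (log2 1.23 ± 0.24, adjusted p = 0.00142). Of 14 adhesion genes, Sele, Vcam1 and Cd44 rose and none fell, at a median log2 change of 0.14. Vcam1 (chr3:116109949-116129688), the ligand of the integrin VLA-4, had 313 and 278 CPM at 3 h and 184 and 170.5 CPM at 0 h (log2 0.74 ± 0.16, adjusted p = 0.00453). Icam1, whose product binds leukocyte integrins, had 3.6 and 12.4 CPM at 3 h and 3.24 and 6.72 CPM at 0 h, overlapped between times and did not pass (log2 0.78 ± 0.52, adjusted p = 0.368).

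In the wider list of 76 known NF-kB targets, 65 were tested, of which 26 rose and 1 fell in RelA-dTAD cells, at a median log2 change of 0.65. The list was assembled with earlier results of these data known, and its share of rises stands beside 7.38% for all genes. The same 65 genes had 12 rises and 1 fall in EV cells (median 0.24, background 9.23% and 7%), 59 rises in RelA-dTA1 cells (median 2.37, background 17.1%) and 63 rises in RelA-WT cells (median 2.79, background 16.9%). Members with a high response in RelA-WT cells and none past the test in RelA-dTAD cells included Csf1 and Sod2. Csf1, the macrophage colony stimulating factor, had 177 and 164 CPM at 3 h and 184 and 154 CPM at 0 h (log2 0.02 ± 0.15 in RelA-dTAD cells and 2.56 ± 0.16 in RelA-WT cells). These 2 examples were chosen after their values were seen. Sod2, the mitochondrial superoxide dismutase, had 58.5 and 59 CPM at 3 h and 43.8 and 52.5 CPM at 0 h in RelA-dTAD cells (log2 0.27 ± 0.12, and 1.91 ± 0.12 in RelA-WT cells).

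Interferon-response genes rose as a smaller second group. Of 59 tested, 21 rose and none fell in RelA-dTAD cells at 3 h (12 without the set block), at a median log2 change of 0.33. Several families in this list (Ifit, Oas, Gbp) hold near-identical copies, so reads can be split between members. Irf1 (chr11:53770014-53778374), a transcription factor that activates interferon genes, had 103 and 101 CPM at 3 h and 49.9 and 54.6 CPM at 0 h (log2 0.96 ± 0.15, adjusted p = 2.01e-04). Rsad2, which encodes the antiviral enzyme viperin, had 268 and 269 CPM at 3 h and 71.5 and 56.5 CPM at 0 h, a 4.28-fold rise (log2 2.098 ± 0.29, adjusted p = 6.61e-05). Cmpk2, its neighbour on chromosome 12 and a nucleotide kinase, had 95 and 113 CPM at 3 h and 53.5 and 53.1 CPM at 0 h (log2 0.98 ± 0.16, adjusted p = 1.97e-04). In these 3 genes both 3 h libraries exceeded both 0 h libraries. Ifit1, an inhibitor of viral translation, was the most abundant named member, with 843 and 803 CPM at 3 h and 435 and 408 CPM at 0 h (log2 0.97 ± 0.24, adjusted p = 0.0132). Gbp5, a guanylate binding protein gene, had 10.8 and 19.3 CPM at 3 h and 3.85 and 5.84 CPM at 0 h (log2 1.66 ± 0.27, adjusted p = 1.9e-04). Socs1, a feedback inhibitor of JAK kinases, had 21.6 and 28.2 CPM at 3 h, against 9.25 and 14.3 CPM at 0 h (log2 1.04 ± 0.15, adjusted p = 8.18e-06). Ifit1bl1, an Ifit family member among the 20 largest rises, had 10.6 and 8.61 CPM at 3 h and 1.85 and 1.81 CPM at 0 h (log2 2.32 ± 0.25, adjusted p = 3.74e-08). None of 23 genes of MHC class I presentation passed at 3 h in RelA-dTAD cells by edgeR or by DESeq2 (1 higher and 0 lower at an unadjusted p under 0.05), at a median of 0.07. In RelA-WT cells 19 of the 23 rose (14 without the block). Over all genes tested 7.38% rose in RelA-dTAD cells and 16.9% in RelA-WT cells, so no rise among 23 genes is near the RelA-dTAD share. Tap1, the peptide transporter, had 40.5 and 64 CPM at 3 h and 39.3 and 60.7 CPM at 0 h in RelA-dTAD cells (log2 0.07 ± 0.21, adjusted p = 0.885).

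Immediate early genes were the list with the largest share of rises by the blocked test. Of 52 tested, 38 rose and 3 fell at 3 h in RelA-dTAD cells, with a median log2 change of 1.01. Without the block 29 rose and 1 fell, and the share of rises was then larger among MAP kinase phosphatases. Over all genes 7.38% rose and 5.06% fell (2.28% and 0.629% without the block), so the 3 falls are near their share. Fos (chr12:85473890-85477273), a subunit of AP-1, had 32.7 and 40.7 CPM at 3 h and 7.86 and 6.00 CPM at 0 h, a 5.73-fold rise (log2 2.52 ± 0.29, adjusted p = 6.79e-06). Junb, its dimer partner, had 133 and 163 CPM at 3 h and 35 and 39.7 CPM at 0 h (log2 1.99 ± 0.13, adjusted p = 7.46e-11). Atf3, a stress-induced repressor of the same leucine zipper class, had 51.8 and 54.5 CPM at 3 h, against 12.5 and 8.84 CPM at 0 h (log2 2.41 ± 0.28, adjusted p = 7.91e-06). Times did not overlap in any of the 3. Ier2, a growth-factor induced gene, had 77 and 98.5 CPM at 3 h and 22 and 27.2 CPM at 0 h (log2 1.82 ± 0.20, adjusted p = 2.58e-06). Ier3, a survival gene, had 84.9 and 64.1 CPM at 3 h and 19.6 and 13 CPM at 0 h (log2 2.23 ± 0.20, adjusted p = 1.19e-07). Btg2, an antiproliferative gene, had 94.8 and 83.2 CPM at 3 h and 18.3 and 18.4 CPM at 0 h (log2 2.23 ± 0.21, adjusted p = 3.41e-07). Zfp36, which encodes tristetraprolin, a protein that destabilizes cytokine mRNAs, had 47.1 and 69.6 CPM at 3 h and 13.7 and 15.1 CPM at 0 h (log2 2.06 ± 0.19, adjusted p = 1.57e-07). The 3 members that fell were Id1, Id2 and Id3, which are described with the falls.

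MAP kinase phosphatases, which switch off MAP kinases, also rose: 7 of 11 tested were higher and 1 lower (7 and 0 without the block), at a median log2 change of 0.80. The shares over all genes, for the lists of this paragraph, were 7.38% and 5.06% (2.28% and 0.629% without the block), so the 1 fall is near its share. Dusp8, whose product acts on JNK and p38, had 25.4 and 35.5 CPM at 3 h and 5.09 and 5.48 CPM at 0 h (log2 2.58 ± 0.18, adjusted p = 2.04e-11). Dusp16, another JNK phosphatase, had 82.7 and 80.8 CPM at 3 h and 36.1 and 35.4 CPM at 0 h (log2 1.197 ± 0.11, adjusted p = 3.22e-09). Dusp6, the phosphatase of ERK, had 34.2 and 34.6 CPM at 3 h, against 17.6 and 17.1 CPM at 0 h (log2 0.99 ± 0.13, adjusted p = 3.18e-06). The 2 times were apart in all 3 genes and both sets. Dusp7 was the member that fell, by 0.27 on the log2 scale (adjusted p = 0.0399, and 0.349 without the set block). Of 19 genes of ERK pathway output, which share Dusp4, Dusp5, Dusp6, Fosl1, Egr1, Myc and Ier3 with the lists above, 9 rose and none fell (8 rose without the block). No fall among 19 genes is near its share. Of 7 EGF receptor ligand genes tested, Hbegf rose (log2 0.79 ± 0.17, adjusted p = 0.00285) and Nrg1 did so by the blocked test only (log2 0.44 ± 0.15, adjusted p = 0.0476, and 0.802 without the set block).

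Falls were fewer than rises, and 6 of the 10 named by size did not pass without the set block. Klf15, a glucocorticoid-induced transcription factor, had 1.44 and 1.02 CPM at 3 h and 5.55 and 5.22 CPM at 0 h (log2 -2.21 ± 0.31, adjusted p = 5.7e-06). Apol8, of the apolipoprotein L family, had 0.36 and 0.41 CPM at 3 h and 1.39 and 2.12 CPM at 0 h (log2 -2.23 ± 0.41, adjusted p = 2.7e-04). Ppp1r3c, a glycogen-targeting phosphatase subunit, had 3.78 and 2.97 CPM at 3 h, against 12.2 and 6.72 CPM at 0 h (log2 -1.38 ± 0.22, adjusted p = 4.19e-05). Ddit4l, a stress-induced inhibitor of mTOR signalling, had 1.08 and 1.95 CPM at 3 h and 4.93 and 4.55 CPM at 0 h (log2 -1.43 ± 0.31, adjusted p = 0.00195). These 4 passed with and without the block, and their times did not overlap. Without RelA-dTAD replicate 2, Klf15 (adjusted p = 0.0634), Apol8 (adjusted p = 0.312) and Ddit4l (adjusted p = 0.0625, log2 -2.18) did not pass. The other 6 passed only with it. Tbxa2r, the thromboxane receptor gene, changed by -2.07 on the log2 scale (adjusted p = 0.00117, and 0.106 without the set block). Hpgd, which breaks down prostaglandins, changed by -1.95 (adjusted p = 0.00847, and 0.109 without the set block). Fam198a changed by -1.36 (adjusted p = 9.1e-05, and 0.0664 without the set block) and Klhl4 by -1.52 (adjusted p = 0.0435, and 0.436 without the set block). For Ndst4, a heparan sulfate enzyme gene, the change was -1.51 (adjusted p = 0.0418, and 0.23 without the set block), and for Cntd1 it was -1.50 (adjusted p = 0.0241, and 0.186 without the set block). Without RelA-dTAD replicate 2 none of the 6 passed (adjusted p between 0.0634 and 0.486), and Hpgd, Klhl4 and Ndst4 were then at -3.49, -2.90 and -3.15. Without RelA-dTAD replicate 1, Hpgd, Klhl4, Ndst4 and Cntd1 did not pass (adjusted p between 0.102 and 0.53), Klhl4 being at -0.82. Cntd1 had 52 reads and overlaps Coa3 and Becn1 on the opposite strand, which had 1543 and 4700, and whether counting used the strand is not given here.

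Of 22 genes of BMP, activin and Id signalling, 7 fell and 3 rose (2 and 0 without the set block), at a median log2 change of 0.02. Over all genes 5.06% fell and 7.38% rose (0.629% and 2.28% without the block). Id2, an inhibitor of basic helix-loop-helix factors, had 11.7 and 12.1 CPM at 3 h and 23.3 and 21.6 CPM at 0 h (log2 -0.87 ± 0.13, adjusted p = 2.6e-05). Smad6, an inhibitor of BMP receptors, had 11.5 and 12.2 CPM at 3 h and 18.8 and 19.9 CPM at 0 h (log2 -0.70 ± 0.15, adjusted p = 0.00182). Id1, Id3, Id4, Smad9 and Bmp4 fell by 0.75, 0.60, 0.70, 0.90 and 0.44 on the log2 scale with the block, and without it their adjusted p lay between 0.0527 and 0.23. The 3 risers were Inhba, Inhbb and Grem1, which encode activin subunits and a BMP antagonist, with log2 changes of 0.63, 0.94 and 0.59 and adjusted p of 0.101, 0.133 and 0.0654 without the block.

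Other lists are described in brief. Of 10 tested genes of plasminogen activation 5 rose and 1 fell (2 and 0 without the block), at a median log2 change of 0.17. In prostaglandin synthesis 1 of 16 rose and 2 fell (1 and 0 without the block). The riser was Ptgs2, the inducible cyclooxygenase, with 88.3 and 85 CPM at 3 h and 35.1 and 29.5 CPM at 0 h (log2 1.45 ± 0.18, adjusted p = 1.62e-05). The genes that fell, Hpgd and Tbxa2r, do not make prostaglandins. Of 26 survival and redox genes 8 rose and 2 fell (4 and 0 without the block). Txnrd1, a thioredoxin reductase, rose, with 386 and 326 CPM at 3 h and 256 and 232 CPM at 0 h (log2 0.54 ± 0.11, adjusted p = 0.00174). Growth factors outside the EGF family had 7 rises and 2 falls of 30 (2 and 0 without the block). Fgf7, a keratinocyte growth factor, had 104 and 90.9 CPM at 3 h and 64.7 and 55.4 CPM at 0 h (log2 0.70 ± 0.10, adjusted p = 7.68e-06). Cytoskeletal genes linked to serum response factor had 9 rises of 23 (2 without the block), Filip1l among them (log2 0.98 ± 0.13, adjusted p = 2.71e-05). Of 24 p53 targets 7 rose and 2 fell (3 and 1 without the block) in these p53-/- cells, Btg2 and Fas among the risers. Of 5 tested members of the Serpina3 cluster, whose near-identical copies share reads, 2 rose: Serpina3g (log2 0.72 ± 0.10, adjusted p = 4.54e-06) and Serpina3f, which had 13 reads at 3 h and 0 at 0 h. Complement and acute phase genes had 0 rises and 1 fall of 17 by edgeR, where DESeq2 called 1 and 1, and 1 was higher and 2 lower at an unadjusted p under 0.05. The fall was C1rl, which did not pass without the block (adjusted p 0.635). These counts stand beside shares over all genes of 7.38% higher and 5.06% lower with the block and 2.28% and 0.629% without it, and the rises of the groups that follow are mostly near or below them. Cell cycle genes had 0 and 1 of 45 by edgeR (0 and 1 by DESeq2, 0 and 7 at an unadjusted p under 0.05), cholesterol synthesis 2 and 0 of 28, glycolysis and hypoxia 2 and 1 of 28. Matrix proteases had 2 and 0 of 23, fibroblast matrix 2 and 1 of 39, and unfolded protein and ATF4 genes 3 and 1 of 24. Without the block none of these groups kept a call except the unfolded protein and ATF4 list, with 2 and 1.

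The 3 h response was built of genes that rose early and of genes that rose after 1 h. At 1 h against 0 h, 216 genes were higher and 43 lower in RelA-dTAD cells (1.58% and 0.315%; 73 and 2 without the block, 0.534% and 0.0146%). At 3 h against 1 h, 457 were higher and 373 lower (3.34% and 2.73%; 59 and 29 without the block, 0.432% and 0.212%). Leaving out RelA-dTAD replicate 1 gave 94 and 9 at 1 h and 98 and 66 between 1 h and 3 h, and leaving out RelA-dTAD replicate 2 gave 60 and 1, and 46 and 36. Immediate early genes were early: 38 of 52 were already higher at 1 h against 0 h (25 without the block), and 9 rose and 11 fell between 1 h and 3 h (3 and 5 without it). Nr4a1, an orphan nuclear receptor, had 18.2, 254, 196, 59.2 and 74.1 CPM on average at 0, 0.5, 1, 3 and 8 h in RelA-dTAD cells. Fos differed in shape, with 6.93, 177, 10.5, 36.7 and 27 CPM at those times. It was near its 0 h level at 1 h and rose again by 3 h (3 h against 1 h, log2 1.88 ± 0.27, adjusted p = 2.5e-04). Interferon-response genes were late: none of 59 passed at 1 h against 0 h by edgeR or by DESeq2 (1 higher and 6 lower at an unadjusted p under 0.05). At 3 h against 1 h, 25 were higher and none lower (10 without the block). Rsad2 averaged 64, 72.3, 74, 269 and 70.6 CPM over the 5 times, with its highest value at 3 h (3 h against 1 h, log2 1.89 ± 0.29, adjusted p = 4.67e-04). Among NF-kB targets, 7 of 65 were higher at 1 h against 0 h and 14 at 3 h against 1 h (3 and 4 without the block).

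At 8 h against 3 h, 3670 genes were higher and 3309 lower in RelA-dTAD cells (26.9% and 24.2%; 2498 and 1958 without the block, 18.3% and 14.3%), so that more genes differed between those times than between 3 h and 0 h. Of the interferon list 22 were higher and 12 lower at 8 h, with Irf1 (log2 -1.44 ± 0.16, adjusted p = 1.46e-07) and Rsad2 (log2 -1.85 ± 0.29, adjusted p = 2.07e-05) among the lower ones. NF-kB targets had 39 higher and 5 lower of 65, Ccl2 among the higher (log2 2.57 ± 0.23, adjusted p = 1.22e-08). Csf1, at its 0 h level at 3 h, was higher at 8 h (log2 1.75 ± 0.15, adjusted p = 4.87e-09). The construct's own transcript moved as well: Rela had 3959 and 6671 CPM at 8 h in RelA-dTAD cells (8 h against 3 h, log2 1.53 ± 0.22, adjusted p = 5.75e-06), and its part in the 8 h changes was not tested.

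**Figure D3:**
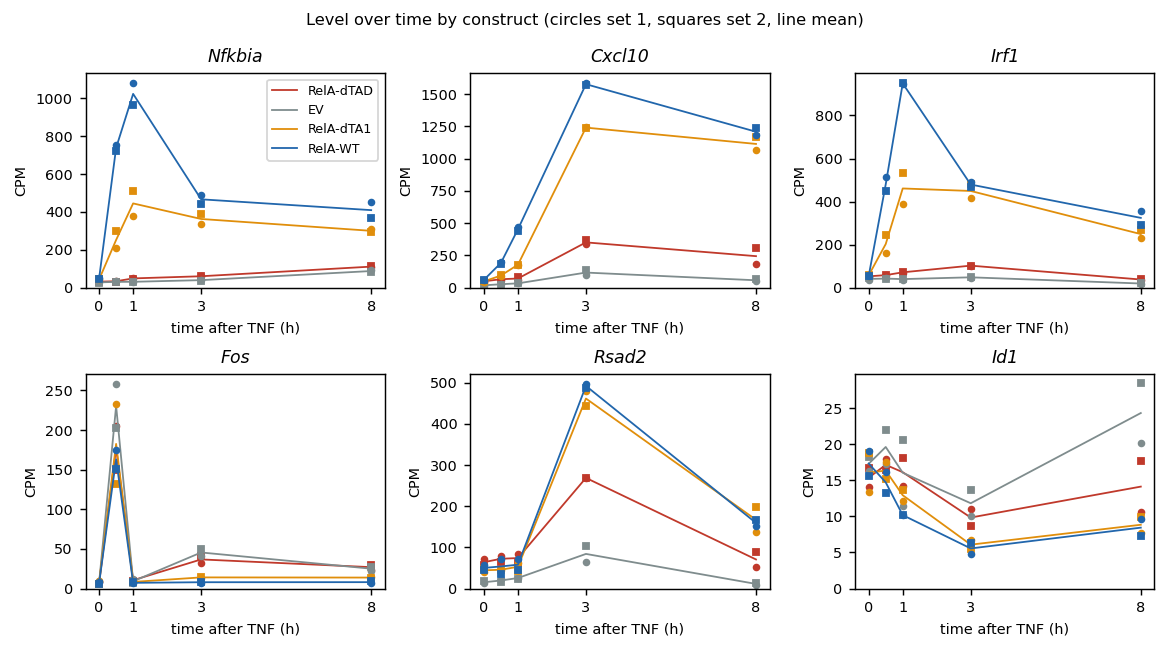
CPM against time after TNF (h) for 6 genes in RelA-dTAD, EV, RelA-dTA1 and RelA-WT cells; circles are set 1, squares set 2 and lines the mean of both. Nfkbia, Cxcl10 and Irf1 in RelA-dTAD cells lie above EV and far below both other RelA constructs at 3 h. Fos at 3 h is higher in RelA-dTAD and EV cells than in the other constructs, Rsad2 is highest at 3 h in all 4, and Id1 is lower at 3 h than at 0 h in all 4.

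Against EV cells, which carry no RelA construct, the 3 h response of RelA-dTAD cells showed no gene whose response differed at an adjusted p under 0.05 (0% of 13665, edgeR). At an unadjusted p under 0.05, 204 genes responded more and 152 less in RelA-dTAD cells, 2.61% of those tested, and DESeq2 also called 0. The median standard error of this difference was 0.18 on the log2 scale, so small differences were not detectable with 2 libraries per group, and a missing call does not show equal responses. RelA-WT cells had 2303 rises and 1928 falls at 3 h (16.9% and 14.1%), RelA-dTA1 cells 2336 and 1836 (17.1% and 13.4%). EV cells had 1261 rises and 957 falls of their own at 3 h (9.23% and 7%). Across the 12648 genes with a mean of at least 1 CPM, the RelA-dTAD response had a Pearson correlation of 0.75 with that of EV, 0.66 with that of RelA-dTA1 and 0.57 with that of RelA-WT. These are across genes, and the libraries of all constructs share the 2 sets.

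For named genes the interval of the difference tells which sizes the data allow. Cxcl10 responded by 2.84 ± 0.17 in RelA-dTAD cells and 2.73 ± 0.20 in EV cells on the log2 scale, a difference of 0.11 (95% interval -0.44 to 0.66). Its levels were not alike: it had 336 and 365 CPM at 3 h and 45 and 52.5 CPM at 0 h in RelA-dTAD cells. In EV cells it had 99.5 and 133 CPM at 3 h and 15.9 and 19.1 CPM at 0 h, and all RelA-dTAD libraries lay above the EV libraries of the same time. Ccl2 showed the same order of levels, with 152 and 94.3 CPM at 3 h and 29.6 and 18.1 CPM at 0 h in RelA-dTAD cells. EV cells had 25.9 and 18 CPM at 3 h and 5.71 and 5.14 CPM at 0 h, and the responses differed by 0.42 (interval -0.64 to 1.47). Rsad2 was likewise at 71.5 and 56.5 CPM in RelA-dTAD cells and 13 and 17.5 CPM in EV cells before TNF, a level difference that was not tested. Fos (difference -0.21, interval -1.14 to 0.72), Junb (0.18, -0.20 to 0.55) and Nfkb2 (0.05, -0.19 to 0.30) had intervals that include 0. Intervals above 0 before adjustment were seen for Birc3 (difference 0.72, interval 0.29 to 1.15), Irf1 (0.71, 0.24 to 1.19), Vcam1 (0.67, 0.18 to 1.15), Socs1 (0.65, 0.17 to 1.12), Fas (1.09, 0.19 to 1.99) and Cxcl9 (1.48, 0.09 to 2.86), each with an adjusted p of 1. These 6 were picked among the named genes after their values were seen. Vcam1 had 313 and 278 CPM at 3 h and 184 and 170.5 CPM at 0 h in RelA-dTAD cells and 133 and 111 CPM at 3 h and 128 and 104 CPM at 0 h in EV cells. With a set shift of its own for each construct it was the 1 gene to pass, with a difference of 0.66 (adjusted p = 0.0327). Hbegf, a ligand of the EGF receptor, had an interval below 0 (difference -0.59, -1.09 to -0.10, adjusted p of 1).

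Against RelA-WT cells the 3 h response differed for many genes: 386 responded more and 755 less in RelA-dTAD cells (2.82% and 5.53%; 82 and 341 without the block, 0.6% and 2.5%). Without RelA-dTAD replicate 1 the counts were 240 and 572, without RelA-dTAD replicate 2 they were 162 and 390, and without RelA-WT replicates 1 and 2 they were 216 and 655, and 140 and 475. Of the 65 NF-kB targets 37 responded less and 1 more (30 and 0 without the block), at a median difference of -2.02 on the log2 scale. Nfkbia responded by 0.95 ± 0.16 in RelA-dTAD cells and 3.26 ± 0.15 in RelA-WT cells (difference -2.30 ± 0.22, adjusted p = 2.2e-07), with 3 h levels of 59.7 and 60.1 CPM in RelA-dTAD cells and 489 and 444 CPM in RelA-WT cells. Vcam1 differed by -2.80 ± 0.23 (adjusted p = 3.16e-08), Irf1 by -2.18 ± 0.21 (adjusted p = 2.41e-07) and Nfkb2, the gene with the smallest p, by -1.90 ± 0.12 (adjusted p = 1.08e-13). Cxcl10, though it rose 7.16-fold in RelA-dTAD cells, responded less than in RelA-WT cells (difference -1.88 ± 0.24, adjusted p = 1.14e-05). Of the interferon list 27 responded less and none more (20 without the block), and of the MHC class I list 14 less and none more (5 without the block). Junb and Zfp36 rose in both constructs, with differences of -0.01 (95% interval -0.38 to 0.36) and 0.00 (-0.59 to 0.59).

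The genes named for the most negative differences from RelA-WT had few reads in RelA-dTAD cells, as ranking by that difference favours, and their reads are given as a description. Cd83, a surface protein of activated antigen-presenting cells, had 13 reads at 3 h and 7 at 0 h over both sets in RelA-dTAD cells, and 562 and 3 at the same times in RelA-WT cells. Icosl, the ligand of the T cell costimulator ICOS, had 18 reads at 3 h and 20 at 0 h in RelA-dTAD cells, and 1066 at 3 h and 16 at 0 h in RelA-WT cells. Tnfsf8, the CD30 ligand gene, had 7 reads at 3 h and 10 at 0 h in RelA-dTAD cells, and 229 at 3 h and 3 at 0 h in RelA-WT cells. Calhm6 had 9 reads at 3 h and 11 at 0 h in RelA-dTAD cells, and 79 at 3 h and 1 at 0 h in RelA-WT cells. Cdh22, a cadherin gene, had 0 reads at 3 h and 3 at 0 h in RelA-dTAD cells, and 73 at 3 h and 1 at 0 h in RelA-WT cells. The calls of Cdh22 (adjusted p = 1), Cd83 (adjusted p = 0.382), Icosl (adjusted p = 0.0686) and Tnfsf8 (adjusted p = 0.0504) were lost without RelA-dTAD replicate 2, where Calhm6 moved to -10.90 on the log2 scale, and Cd83 moved to -10.51 without RelA-WT replicate 2. The fitted differences carry wide intervals, for Cd83 -9.64 to -4.16 and for Icosl -8.85 to -4.12 on the log2 scale.

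Immediate early genes went the other way, with 14 of 52 responding more in RelA-dTAD than in RelA-WT cells and 5 less (8 and 3 without the block). Fos responded by 2.52 ± 0.29 in RelA-dTAD cells and 0.25 ± 0.41 in RelA-WT cells (difference 2.27 ± 0.51, adjusted p = 0.00564). Its 3 h levels were 32.7 and 40.7 CPM in RelA-dTAD cells, 7.48 and 8.45 CPM in RelA-WT cells and 40.8 and 50.2 CPM in EV cells, so RelA-WT lay below both others. Nr4a1 had 51.3 and 67.2 CPM at 3 h in RelA-dTAD cells and 12.9 and 13.1 CPM in RelA-WT cells (difference of responses 2.24 ± 0.59, adjusted p = 0.0183). Fosb, another AP-1 subunit, had 7.37 and 11.8 CPM at 3 h in RelA-dTAD cells and 2.22 and 2.47 CPM in RelA-WT cells (difference 2.59 ± 0.56, adjusted p = 0.00337). The phosphatases did so too: 7 of 11 MAP kinase phosphatase genes responded more and none less (3 without the block), with Dusp6 at 1.16 ± 0.21 (adjusted p = 1.73e-04). The calls of Fos, Nr4a1 and Fosb depended on single replicates of a construct. Without RelA-dTAD replicate 2 none passed, with Fos at 1.802 (adjusted p = 0.175), Nr4a1 at 2.23 (adjusted p = 0.128) and Fosb at 1.75 (adjusted p = 0.335). Without RelA-WT replicate 1 Fos (adjusted p = 0.114) and Nr4a1 (adjusted p = 0.162) did not pass, and without RelA-WT replicate 2 none of the 3 did (adjusted p between 0.0874 and 0.195). Slc27a6, a fatty acid transporter gene (difference 1.79 ± 0.47, adjusted p = 0.0104, and 0.273 without the set block), and Eva1a, an autophagy gene (1.71 ± 0.33, adjusted p = 6.02e-04, and 0.191 without the set block), completed the 5 most positive differences. Both were lost without RelA-WT replicate 2 (adjusted p = 0.373 and 0.28), and Slc27a6 was at 2.797 without RelA-dTAD replicate 2.

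**Figure D4:**
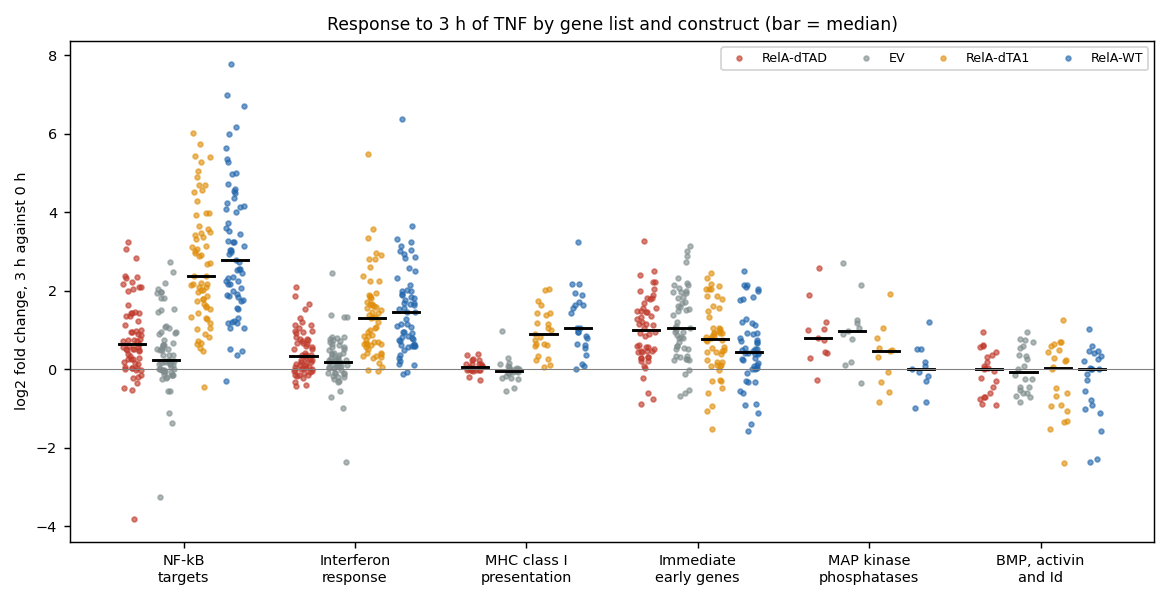
Log2 fold change at 3 h against 0 h for the tested members of 6 gene lists in RelA-dTAD, EV, RelA-dTA1 and RelA-WT cells, 1 point per gene and a bar at the median. For NF-kB targets the medians are 0.65 in RelA-dTAD, 0.24 in EV, 2.37 in RelA-dTA1 and 2.79 in RelA-WT cells, and for immediate early genes 1.01, 1.07, 0.78 and 0.44. The points below -3 in the first list are Saa3 in RelA-dTAD and Cxcl3 in EV cells, which had few reads.

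Against RelA-dTA1 cells, 161 genes responded more and 511 less in RelA-dTAD cells (1.18% and 3.74%; 16 and 184 without the block, 0.117% and 1.35%). Without RelA-dTAD replicate 1 the counts were 89 and 358, without RelA-dTAD replicate 2 they were 36 and 215, and without RelA-dTA1 replicates 1 and 2 they were 107 and 462, and 35 and 222. Of the 65 NF-kB targets 35 responded less and none more, at a median difference of -1.67. Icosl, Tnfsf8, Cd83 and Calhm6 were again among the most negative, with 1292, 266, 411 and 112 reads at 3 h in RelA-dTA1 cells. Ankrd33b joined them, with 33 reads at 3 h and 20 at 0 h in RelA-dTAD cells and 393 and 15 at those times in RelA-dTA1 cells. Of the 5 most positive differences, 4 came from genes that fell in RelA-dTA1 cells (Fgf18, Id4, Lmcd1 and Spata2l). Fgf18, a growth factor gene, had 6.12 and 4.71 CPM at 3 h and 6.78 and 7.19 CPM at 0 h in RelA-dTAD cells. In RelA-dTA1 cells it had 1.66 and 1.72 CPM at 3 h and 8.02 and 8.9 CPM at 0 h (difference 1.86 ± 0.34, adjusted p = 3.39e-04). Id4 had 4.5 and 4.1 CPM at 3 h and 7.86 and 6.46 CPM at 0 h in RelA-dTAD cells. RelA-dTA1 cells had 1.85 and 1.24 CPM at 3 h and 9.4 and 6.46 CPM at 0 h (difference 1.67 ± 0.33, adjusted p = 8.17e-04). Lmcd1, Spata2l and Fosb passed only with the block, with differences of 1.97, 1.57 and 1.68, and adjusted p of 0.0946, 0.0814 and 0.148 without the block. Among the negative differences, that of Cd83 also passed only with the block (adjusted p = 0.0919 without it). Of the 10 genes named for their difference from RelA-dTA1, 9 did not pass without RelA-dTAD replicate 2 (Fgf18 did), and Fosb was then at 0.84 and Calhm6 at -9.12. Without RelA-dTA1 replicate 2, 7 did not pass (all but Icosl, Tnfsf8 and Ankrd33b), and Tnfsf8 was at -9.68. Fosb and Spata2l were also lost without RelA-dTA1 replicate 1, and Fosb and Icosl without RelA-dTAD replicate 1.

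How much of each construct's response was left in RelA-dTAD cells is described on genes chosen by their change in the other constructs, whose libraries are not those of RelA-dTAD. Of the 657 genes at least 2-fold higher in RelA-WT cells, whose median log2 change there was 1.77 by this choice, RelA-dTAD cells had a median of 0.37 and EV cells one of 0.23. Of these, 184 (28%) were called higher in RelA-dTAD cells and 129 (19.6%) in EV cells. In RelA-dTAD cells 68 of the 657 were at least 2-fold higher. Of the 546 genes at least 2-fold higher in RelA-dTA1 cells, 190 (34.8%) were called higher in RelA-dTAD cells, at a median of 0.48. In EV cells 130 (23.8%) of the 546 were called higher, at a median of 0.31. Of the 113 genes at least 2-fold higher in EV cells, 90 (79.6%) were called higher in RelA-dTAD cells, at a median of 1.2. For falls, 28 (35.4%) of the 79 genes chosen in EV cells and 87 (36%) of the 242 chosen in RelA-WT cells were called lower in RelA-dTAD cells. In EV cells 86 (35.5%) of the 242 were called lower. Over all genes tested, 7.38% were called higher and 5.06% lower in RelA-dTAD cells, and 9.23% and 7% in EV cells.

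**Figure D5:**
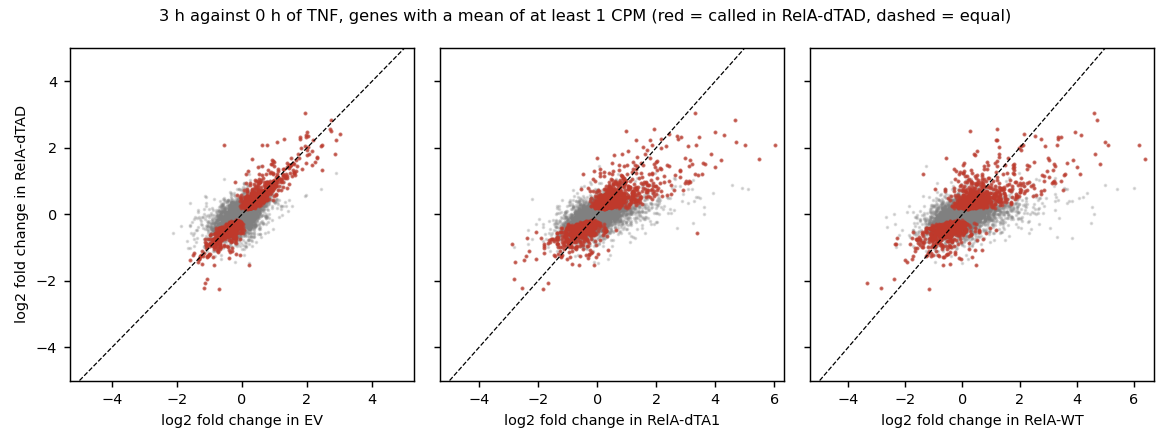
Log2 fold change at 3 h against 0 h in RelA-dTAD cells (vertical) against that in EV, RelA-dTA1 and RelA-WT cells (horizontal), 1 point per gene with a mean of at least 1 CPM (12648 genes). Red points passed the test in RelA-dTAD cells, and the dashed line marks equal responses. Points scatter around the line for EV (Pearson 0.75), while many points with a large response in RelA-dTA1 (0.66) or RelA-WT (0.57) cells lie below it.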

How the data were processed

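RNA sequencing libraries of mouse embryonic fibroblasts (KAPA stranded mRNA kit, 12 PCR cycles, single-end reads of 50 bases, per the labels' protocols) were deposited by the authors as raw counts per gene, 45706 entries on build mm10. The submitters' processing notes name cutadapt 1.9.1, STAR, featureCounts 1.5.0 and DESeq2; whether counting used the strand is not given in the sources used here. Totals ran between 4663288 and 20322003 reads, so genes with few reads are the least precise in set 1.

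The deposited counts were tested with edgeR 4.0.16 (quasi-likelihood, robust, TMM scaling; R 4.3.3, limma 3.58.1). The 40 libraries of the 4 constructs with 2 sets shared 1 fit, with a mean for each construct and time and a set block; 13665 genes passed edgeR's filter on low counts, and p-values were Benjamini-Hochberg adjusted over them. The 35 libraries of 7 constructs with 1 library per time were left out. The block was used because set numbers equal the labels' replicate numbers and same-numbered libraries deviated together, with correlations between 0.357 and 0.668 over 190 pairs of groups (0.643 for RelA-dTAD at 3 h with 0 h). Differences of responses are contrasts of this fit. Standard errors are the size of a log2 change divided by the root of its F, and ± gives them. Alternatives were no block, a block by construct, DESeq2 1.42.0 with its size factors, no filter, a minimum fold and the 4 libraries alone. In addition each replicate of each construct was left out in turn, with its libraries at all 5 times. The procedure was tested on simulated data with a set shift of the kind the block assumes, so that test does not bear on the choice of block.

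Members and gene lists were chosen with earlier results of these data known. Genes were named by size of change among those passing the test with a mean of at least 1 CPM (20 higher, 10 lower; 5 each way for differences), with further members of the lists by role.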

Additional observations from a re-analysis of the deposited data

Results flagged for a closer look

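Responses at 3 h that differed between constructs by the edgeR interaction test are collected here. RelA-dTAD cells responded more than RelA-WT cells for 386 genes and less for 755, and more than RelA-dTA1 cells for 161 and less for 511. Against RelA-WT the differences of the named genes, on the log2 scale, were 2.59 for Fosb, 2.27 for Fos, 2.24 for Nr4a1, 1.79 for Slc27a6 and 1.71 for Eva1a. They were -9.64 for Cdh22, -6.91 for Tnfsf8, -6.90 for Cd83, -6.62 for Calhm6 and -6.48 for Icosl. Against RelA-dTA1 they were 1.97 for Lmcd1, 1.86 for Fgf18, 1.68 for Fosb, 1.67 for Id4 and 1.57 for Spata2l, and -5.87 for Icosl, -5.68 for Tnfsf8, -4.85 for Cd83, -4.80 for Calhm6 and -4.36 for Ankrd33b. The negative ones come from genes with few reads in RelA-dTAD cells, between 0 (Cdh22) and 33 (Ankrd33b) at 3 h over both sets, and their size is imprecise. Each of these 20 differences, except that of Calhm6 against RelA-WT, lost its call in at least 1 fit that left out a replicate of a construct, as given above. No group had the 4 libraries needed to test for a library far from the others.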

How the results depend on the processing

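Without the set block the counts of genes that responded were 311 higher and 86 lower at 3 h against 0 h, 73 and 2 at 1 h against 0 h, 59 and 29 at 3 h against 1 h and 1958 lower at 8 h against 3 h, and the differences of responses were 82 and 341 against RelA-WT and 16 and 184 against RelA-dTA1. With a set block for each construct, 1 gene (Vcam1) responded more than in EV. With no filter 96 genes were lower at 1 h against 0 h, and 12 responded more and 7 less than in EV. Which genes these were, and how many reads they had, was not examined. The 4 RelA-dTAD libraries alone gave 1979 and 1704, and a test against a minimum fold of 1.5 gave 61 and 8. Leaving out 1 library gave 243 to 367 higher and 86 to 151 lower at 3 h against 0 h, 60 to 94 and 1 to 9 at 1 h, 46 to 98 and 36 to 66 at 3 h against 1 h, and 2479 to 2941 and 1815 to 2612 at 8 h. For differences it gave 140 to 240 and 390 to 655 against RelA-WT, 35 to 107 and 215 to 462 against RelA-dTA1, and 0 and 0 to 1 against EV, the 1 being Gm23935 without RelA-dTAD replicate 1. A group left with 1 library was taken to vary like the others. The cause of each shift was not tested beyond its construction. Of the values of single genes under these alternatives, 322 kept their call, 78 lost it and 0 reversed. Genes named for their role were not refitted without each replicate. Depth limits genes of few reads, such as Tnf and Csf2.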

Other observations

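Levels before TNF belong to no comparison above and were not tested. At 0 h Cxcl10 had 45 and 52.5 CPM in RelA-dTAD, 42.7 and 53.1 CPM in RelA-dTA1, 57.6 and 62.6 CPM in RelA-WT and 15.9 and 19.1 CPM in EV cells. Ccl2 had 29.6 and 18.1 CPM in RelA-dTAD, 49.2 and 54.9 CPM in RelA-dTA1, 88.7 and 46.3 CPM in RelA-WT and 5.71 and 5.14 CPM in EV cells. For Rsad2 the levels were 71.5 and 56.5 CPM in RelA-dTAD, 40.5 and 48.1 CPM in RelA-dTA1, 56.1 and 44.1 CPM in RelA-WT and 13 and 17.5 CPM in EV cells. In all 3 genes the EV libraries were the lowest of the 4 groups in their set. Saa3, a serum amyloid A gene, had 4 reads over both sets at 0 h in RelA-dTAD, 1085 in RelA-dTA1, 891 in RelA-WT and 1 in EV cells, so it was counted in number before TNF in the constructs other than RelA-dTAD and EV. At 3 h its reads were 0 in RelA-dTAD, 1093 in RelA-dTA1, 1025 in RelA-WT and 3 in EV cells.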
